A study of Macaca fascicularis with 11 samples.

Results

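BMP4, the ID genes (ID1, ID2, ID3 and ID4) and BAMBI were followed as 6 genes of 19367 through all cell types, days and genotypes of cultured cynomolgus macaque (Macaca fascicularis) embryos profiled by single-cell RNA sequencing. The genes were chosen by symbol, and all 6 were found, under the Ensembl identifiers ENSMFAG00000040789 (BMP4), ENSMFAG00000003625 (ID1), ENSMFAG00000000039 (ID2), ENSMFAG00000041663 (ID3), ENSMFAG00000032981 (ID4) and ENSMFAG00000037543 (BAMBI). The series asked what the transcription factor ISL1 does in the peri-gastrulation primate embryo, and the 6 genes are a ligand, targets and an inhibitor of the bone morphogenetic protein (BMP) pathway.

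Wild-type blastocysts and blastocysts with an ISL1 hypomorphic mutation were thawed, freed of the zona pellucida and grown in the same in vitro culture media to Day 10, Day 12 or Day 14. Mutants came from zygotes injected with SpCas9 and gRNAs against ISL1, so that embryos were mosaic, with mostly frameshift deletions, while wild-type embryos carried no edit. The 11 libraries held 33330 cells, with 6 wild-type libraries from 12 embryos (2 at each day) and 5 mutant libraries from 11 embryos (1 at Day 10, 2 at Day 12 and 2 at Day 14). Each library held 1 to 3 embryos, so the spread between libraries is a spread between pools or single embryos. The first wild-type library of Day 12 and the second mutant libraries of Day 12 and Day 14 came from 1 embryo each.

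Bone morphogenetic proteins are secreted ligands of the TGF-beta family that bind paired serine/threonine kinase receptors and act through phosphorylated SMAD1, SMAD5 and SMAD9. The ID genes are among the most direct transcriptional targets of this pathway and encode helix-loop-helix proteins without a DNA-binding region, which sequester E proteins and so block their partners. BAMBI encodes a membrane pseudoreceptor without a kinase domain that dampens TGF-beta and BMP signalling and is itself induced by BMP. In the early embryo BMP signals from extraembryonic tissues take part in setting up the primitive streak and the mesoderm.

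Cells were clustered for each day without the 6 genes and named from marker genes, which gave 7 types. These were Epi-like (epiblast; 1395 cells), transition-like (165 cells, Day 14 only), mesoderm-like (557 cells), amnion-like (435 cells), extraembryonic mesenchyme-like (ExE-Mech-like; 6537 cells), endoderm-like (490 cells) and trophoblast-like (21496 cells). Trophoblast-like clusters were those that did not reach the marker score set for the other main lineages and had trophoblast markers detected. For each library, unique molecular identifiers (UMIs) were added up by cell type and scaled to the total of that sum (CPM, counts per 1000000 UMIs). Sums of fewer than 5 cells were left out, which left 31071 named cells. CPM compare 1 gene between types and libraries but not different genes with each other. A difference in a sum cannot tell fewer expressing cells of a type from less RNA in each cell.

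The libraries differed in depth, with 36654977 to 164808415 UMIs in total and a median of 10916 to 142180 UMIs per cell. At Days 12 and 14 depth went with genotype. Median UMIs per cell were 142180 and 38687 in wild-type and 18893 and 21836.5 in mutant libraries at Day 12. At Day 14 they were 47802.5 and 24720 against 10916 and 23378. The part of depth in the differences between genotypes was not tested. Pairs of libraries shared at most 16 cell barcodes and at most 0.52% of the smaller library. Several Day 14 sums were small in the second libraries: the second wild-type library held 23 Epi-like, 22 mesoderm-like and 29 amnion-like cells, and the second mutant library held 14 Epi-like and 6 transition-like cells and left 1 mesoderm-like cell, which was not used. The Day 14 amnion-like class was also of unequal make-up: a cluster of 31 cells led by WLS and HAND1 came from the first mutant library and a cluster of 27 cells led by DLK1 and HEY1 from the second mutant library, while a cluster of 117 cells held at least 18 cells of each of the 4 libraries. A further cluster of 27 cells, with SOX17 and TFAP2C among its leading genes, held cells of all 4 libraries but a single cell of the second mutant library. SOX17 is on the endoderm marker list and TFAP2C on an amnion list, so the amnion-like name of this cluster is uncertain. ISL1, the edited gene (ENSMFAG00000035949), was highest in amnion-like cells in 9 of 9 libraries with such cells. At Day 14 it stood at 117 and 165 CPM in wild-type and 220 and 186 CPM in mutant amnion-like cells (log2 difference 0.57, SE 0.47, adjusted p = 0.568, edgeR). A 3' count of transcripts does not read the deletions, so this level does not check the edit.

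BMP4 transcripts were concentrated in 3 cell types. By the median over libraries BMP4 stood at 228 CPM in amnion-like cells (range 128 to 466 CPM over 9 libraries), at 156 CPM in ExE-Mech-like cells (96.2 to 265 CPM) and at 137 CPM in mesoderm-like cells (41.2 to 213 CPM). Amnion-like cells held the highest BMP4 level of all types in 8 of 9 libraries and stood above mesoderm-like cells in 7 of 8 libraries and above ExE-Mech-like cells in 7 of 8. The ranges of these 3 types overlapped over libraries of all days and genotypes. Within libraries the median log2 ratio of amnion-like cells was 1.10 to mesoderm-like and 0.55 to ExE-Mech-like cells. The order of the types was not tested.

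Below these, transition-like cells had a median BMP4 level of 31.2 CPM (17.2 to 77.7 CPM), endoderm-like cells 16.3 CPM (11.1 to 71.2 CPM), Epi-like cells 5.39 CPM (2.00 to 15.4 CPM) and trophoblast-like cells 4.74 CPM (0.262 to 13.8 CPM). The lowest transition-like library was above the highest Epi-like and trophoblast-like libraries, whereas each type overlapped with the next in this order, from mesoderm-like through transition-like, endoderm-like and Epi-like to trophoblast-like cells. The Epi-like values rest on few molecules, with 4 to 83 BMP4 UMIs per library.

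**Figure D1:**
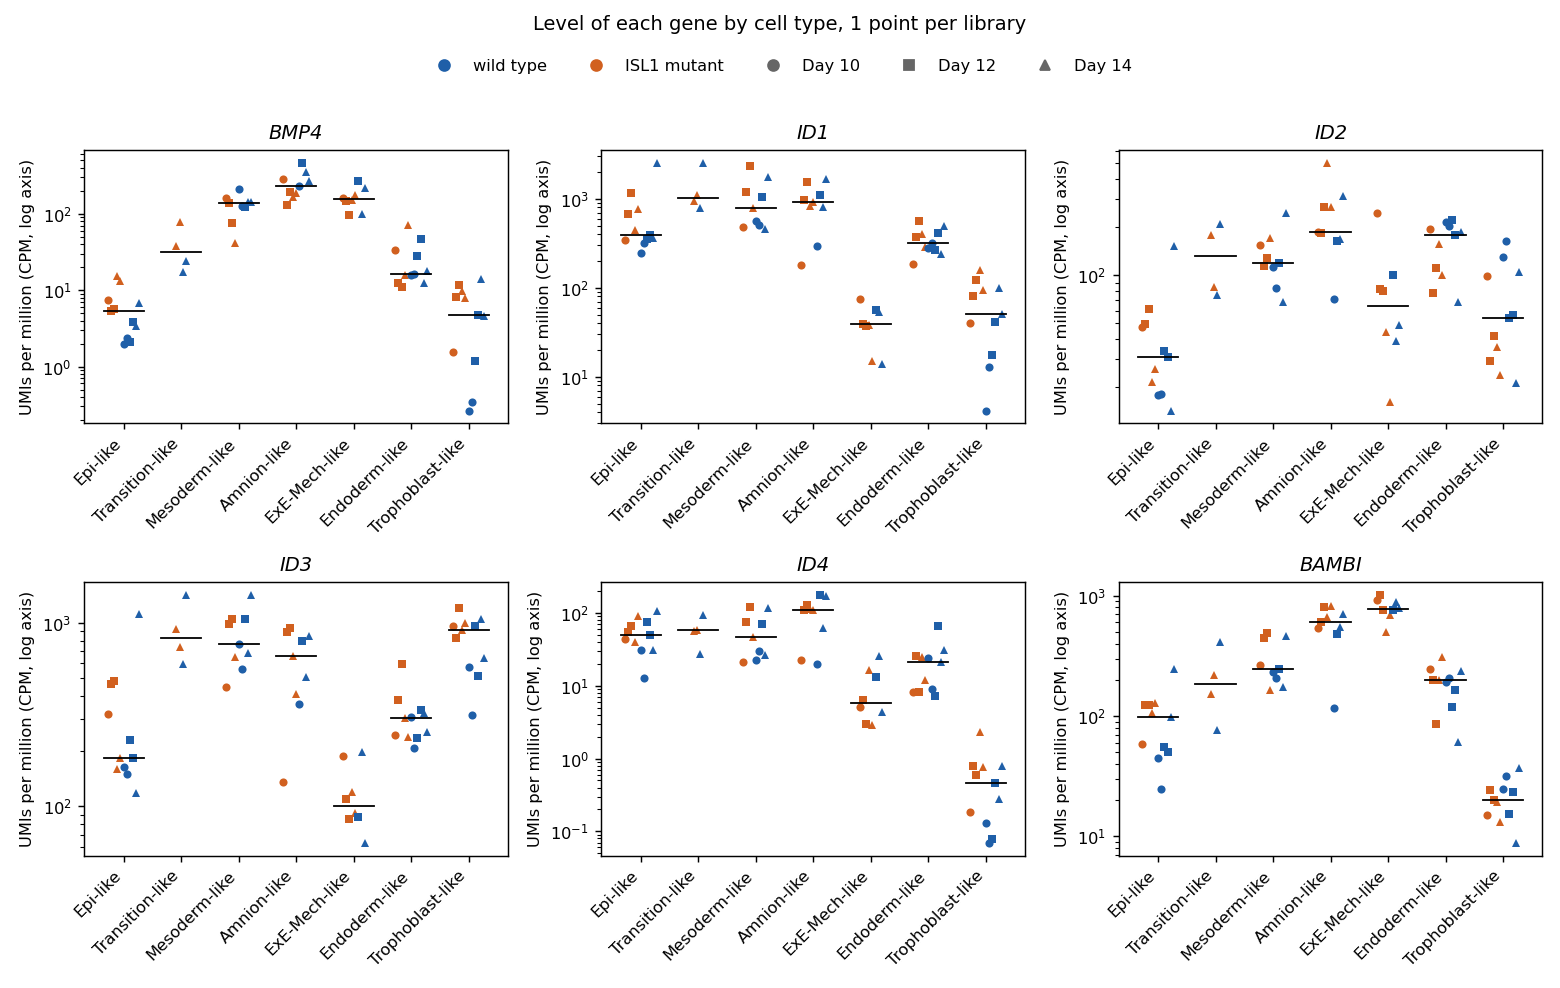
Level of each of the 6 genes (CPM of summed UMIs, log axis) in each cell type, with 1 point per library, colour for genotype (blue wild-type, orange ISL1 mutant), point shape for day and a bar at the median over libraries. BMP4 points of amnion-like, ExE-Mech-like and mesoderm-like cells lie between 41.2 and 466 CPM, and ID4 points of trophoblast-like cells lie at or below 2.34 CPM.

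The share of cells with a BMP4 UMI followed the same order when every cell was thinned to 5000 UMIs. At that depth a median of 54.5% of amnion-like cells (range over libraries 41.5 to 76.2%), 48.9% of ExE-Mech-like cells, 31.6% of mesoderm-like cells and 20.6% of transition-like cells had a BMP4 UMI. Endoderm-like cells stood at 4.55%, Epi-like cells at 3.45% and trophoblast-like cells at 2.13%. The share in trophoblast-like cells ran from 0 to 5.62% over libraries. It is no clean background, since BMP4 differed between days and clusters of this type as given below, and no other type had a lower BMP4 level. The endoderm-like and Epi-like medians lay within that range, with 0 to 36.4% and 0 to 21.4% over libraries, and are not read as expression, while the endoderm-like BMP4 level in CPM was above the trophoblast-like level in 9 of 11 libraries. Without thinning, the medians were 83.6% of amnion-like and 10.6% of trophoblast-like cells, at median depths of 6734.5 to 117958 UMIs per amnion-like cell and 11413 to 144630 UMIs per trophoblast-like cell. Thinning left out 1294 of 31071 cells as shallower, 986 of them in the first Day 14 mutant library.

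Within the mesoderm-like class BMP4 differed between clusters, which hold cells of several libraries and are described without a test. At Day 10 a cluster of 62 cells led by MESP1, a transcription factor of nascent mesoderm, stood at 246 CPM of BMP4 and a cluster of 50 cells led by the caudal homeobox gene CDX1 at 17.4 CPM. At Day 12 a cluster of 65 cells with MESP1 among its leading genes was at 179 CPM, and a cluster of 126 cells with CGA, a trophoblast hormone gene, and CDX1 among its leading genes at 63.8 CPM. At Day 14 the order was the opposite, with 113 CPM in the cluster of 131 cells led by MIXL1 and MESP1, 96.2% of them from a single library, and 188 CPM in the cluster of 104 cells led by CDX1 and CDX4. The study proposes that the MESP1-expressing cells of Day 10 are likely extraembryonic mesoderm, and it names embryonic mesoderm at Day 14. Clusters of different days may therefore not be the same tissue.

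BAMBI had its highest levels where BMP4 was high outside the mesoderm. Its median was 773 CPM in ExE-Mech-like cells (496 to 1019 CPM) and 605 CPM in amnion-like cells (116 to 815 CPM), followed by mesoderm-like cells at 248 CPM (165 to 488 CPM), endoderm-like cells at 199 CPM (61.1 to 308 CPM), transition-like cells at 186 CPM (76.6 to 412 CPM) and Epi-like cells at 98.0 CPM (24.5 to 245 CPM). Trophoblast-like cells were lowest at 20.2 CPM (8.78 to 37.2 CPM). Neighbours in this order overlapped over libraries, while every ExE-Mech-like library lay above every mesoderm-like library. Thinned to 5000 UMIs, 95.8% of ExE-Mech-like cells, 86.0% of amnion-like cells and 9.16% of trophoblast-like cells had a BAMBI UMI.

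The 4 ID genes did not share an order of cell types. ID1 was highest in the embryonic types and amnion, with medians of 1020 CPM in transition-like (783 to 2549 CPM), 916 CPM in amnion-like (182 to 1654 CPM), 778 CPM in mesoderm-like (456 to 2313 CPM), 390 CPM in Epi-like (248 to 2511 CPM) and 322 CPM in endoderm-like cells (186 to 557 CPM). Below a gap lay trophoblast-like cells at 50.6 CPM (4.12 to 159 CPM) and ExE-Mech-like cells at 38.8 CPM (14.0 to 74.8 CPM). ExE-Mech-like cells thus combined high BMP4 and BAMBI levels with the lowest median of ID1, although the ID1 ranges of ExE-Mech-like and trophoblast-like cells overlapped and ExE-Mech-like cells were the higher in 2 of 8 libraries. The share of cells with an ID1 UMI at 5000 UMIs was 76.9% in Epi-like, 17.0% in trophoblast-like and 15.1% in ExE-Mech-like cells.

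ID3 was high in trophoblast-like cells, where ID1 was low. Its median was 913 CPM in trophoblast-like cells (314 to 1210 CPM), 830 CPM in transition-like cells (594 to 1422 CPM), 768 CPM in mesoderm-like cells (445 to 1417 CPM) and 663 CPM in amnion-like cells (135 to 938 CPM). Endoderm-like cells at 302 CPM (208 to 593 CPM), Epi-like cells at 184 CPM (117 to 1112 CPM) and ExE-Mech-like cells at 101 CPM (62.9 to 199 CPM) followed. At 5000 UMIs, 80.2% of trophoblast-like and 24.3% of ExE-Mech-like cells had an ID3 UMI. Neighbouring types in the ID3 order overlapped, while the highest ExE-Mech-like library lay below the lowest library of the trophoblast-like, transition-like, mesoderm-like and endoderm-like cells.

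ID2 had the closest medians between types of the 6 genes, running from 187 CPM in amnion-like cells (71.1 to 506 CPM) through 178 CPM in endoderm-like, 131 CPM in transition-like, 119 CPM in mesoderm-like, 64.2 CPM in ExE-Mech-like and 54.2 CPM in trophoblast-like cells to 30.7 CPM in Epi-like cells (14.1 to 151 CPM). All neighbouring ranges overlapped. A median of 52.4% of amnion-like cells had an ID2 UMI at 5000 UMIs.

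ID4 was close to 0 in trophoblast-like cells and highest in the amnion. Amnion-like cells had a median of 112 CPM (19.8 to 179 CPM), transition-like cells 57.7 CPM (27.1 to 93.0 CPM), Epi-like cells 49.4 CPM (13.0 to 106 CPM), mesoderm-like cells 46.4 CPM (21.2 to 123 CPM), endoderm-like cells 21.1 CPM (7.36 to 66.7 CPM) and ExE-Mech-like cells 5.77 CPM (2.93 to 26.1 CPM). Trophoblast-like cells stood apart at 0.467 CPM (0.0688 to 2.34 CPM), below the lowest library of every other type. At 5000 UMIs, 36.9% of amnion-like and 0.169% of trophoblast-like cells had an ID4 UMI, and the latter share is read as background.

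Over the 54 sums of at least 20 cells, the 6 genes followed each other to very different degrees (Spearman correlation of log2(CPM + 1), given as a description, since sums share libraries and depth). BMP4 and BAMBI had a correlation of 0.832 and ID1 and ID4 of 0.890, and each was among the 3 genes most like its partner of 908 genes with a symbol. BMP4 was less like its target genes, with correlations of 0.32 with ID1, 0.45 with ID2, 0.42 with ID4 and -0.05 with ID3. ID3 was also unlike BAMBI (-0.25) and moderately like ID1 (0.49).

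Only the 908 genes with a symbol could be named here, and genes without a symbol were more like some members. Among the genes with a symbol, those most like BMP4 were PTK7 (0.845), a receptor of planar cell polarity, HOXA11 (0.845), a posterior homeobox gene, and BAMBI. Those most like ID2 were the transcription factors TBX3 (0.797), ISL1 (0.752) and CDX2 (0.724), at ranks 2, 4 and 6 of all genes compared. BAMBI was followed, after BMP4, by NDRG2 (0.820) and the homeobox gene MEIS2 (0.818). ID1 was followed, after ID4, by TMEM59L (0.853) and ARMC10 (0.850), and ID4 was most like the amino acid transporter SLC7A3 (0.903), which is also a marker used to name amnion-like clusters, ID1 and the chemokine CXCL12 (0.888). The genes most like ID3 were SKAP2 (0.796), EPB41L3 (0.697) and SNX10 (0.690).

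The mutation was compared with wild-type within each cell type and day on the summed counts (edgeR quasi-likelihood test, two-sided, Benjamini-Hochberg adjustment over all genes of the fit, called at a false discovery rate of 1%). None of the 6 genes was called in any of the 14 comparisons of genotypes that were run, which were all 7 types at Day 14, Epi-like, endoderm-like and trophoblast-like cells at Day 12, and these and mesoderm-like cells at Day 10. Day 12 amnion-like, mesoderm-like and ExE-Mech-like cells, with 1 usable wild-type library each, were not tested. At Day 14 edgeR called 0.0109% of all genes in amnion-like, 0.0387% in Epi-like and 0.0192% in transition-like cells and 0% in mesoderm-like, ExE-Mech-like, endoderm-like and trophoblast-like cells. At an unadjusted p under 0.05 the Day 14 comparisons held 1 member in amnion-like (16.7% of all genes), 2 in Epi-like (13.6%), 1 in transition-like (7.94%), 1 in mesoderm-like (6.52%) and 0 in ExE-Mech-like (16.9%), endoderm-like (6.95%) and trophoblast-like cells (14.1%), and DESeq2 called 0 in each of the 7 types. In amnion-like cells 1 member of 6 equals the share over all genes.

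In Day 14 amnion-like cells BMP4 was the member with the largest difference in the main fit, closely followed by ID2 with the opposite sign (0.70). BMP4 was at 348 and 265 CPM in the 2 wild-type libraries and at 163 and 186 CPM in the 2 mutant libraries. Both mutant libraries lay below both wild-type libraries, as they did for 21.9% of all genes in this comparison, and no other member had groups apart in that direction. The log2 difference was -0.76 (SE 0.32, adjusted p = 0.273, edgeR), which did not pass the threshold. Between libraries with the same batch number, which the labels count within each genotype, the log2 difference was -1.09 in batch 1 and -0.51 in batch 2. Larger differences were found for ID2 in batch 1 (1.60) and for ID1 (-0.85), ID3 (-1.05) and ID4 (-0.64) in batch 2.

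The BMP4 difference kept its sign in 24 of 24 alternative analyses, between -1.07 and -0.54, with adjusted p between 0.0627 and 0.638. In the cluster of 117 cells alone (38 and 18 wild-type cells, 36 and 25 mutant cells), an analysis added after seeing the data, BMP4 was at 390 and 360 CPM in wild-type and at 173 and 208 CPM in mutant cells (log2 difference -0.98, adjusted p = 0.461, edgeR). With the cluster of 27 cells shared by all libraries added, so that only the mutant-only clusters were left out, BMP4 was at 348 and 265 CPM in wild-type and at 144 and 204 CPM in mutant cells (-0.79, adjusted p = 0.50, edgeR), which was also added after seeing the data. The share of cells with a BMP4 UMI at 5000 UMIs was 69.8% (95% interval 53.9 to 82.8%, exact binomial) and 62.1% (42.3 to 79.3%) in the wild-type and 50.0% (35.2 to 64.8%) and 49.0% (34.7 to 63.4%) in the mutant libraries. These intervals cover counting error only and overlapped between genotypes. Without thinning the shares were 90.9% and 89.7% against 55.3% and 77.4%, at 30260 and 19660 against 6734.5 and 12687 UMIs per cell.

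ID1, ID3 and ID4 in the same amnion-like cells differed little between genotypes compared with the spread of the libraries. ID1 was at 801 and 1654 CPM in wild-type and at 822 and 916 CPM in mutant cells (log2 difference -0.44, SE 0.40). ID3 was at 504 and 848 CPM against 663 and 408 CPM (-0.32, SE 0.32), and ID4 at 62.0 and 175 CPM against 115 and 112 CPM (0.02, SE 0.43). ID1 and ID3 spread over a factor of 2.06 and 1.68 between the wild-type libraries, and the mutant values of ID1 and ID4 lay within the wild-type ranges. These levels depend on the cells counted as amnion-like. With the unnamed clusters nearest to amnion added, as given at the end, ID3 was at 470 and 848 CPM in wild-type and 346 and 408 CPM in mutant libraries. ID1 of the first mutant library was then at 441 CPM.

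ID2 and BAMBI had differences of the opposite sign to BMP4 in amnion-like cells. ID2 was at 167 and 312 CPM in wild-type and at 506 and 268 CPM in mutant libraries (log2 difference 0.70, SE 0.37, adjusted p = 0.371, edgeR), and the groups overlapped. The ID2 difference kept its sign in 24 of 24 alternatives, between 0.25 and 1.20. The mutant-only cluster of 31 cells led by WLS and HAND1 had 562 CPM of ID2 and 203 CPM of BMP4, and the mutant-only cluster of 27 cells 234 CPM of ID2 and 159.5 CPM of BMP4. The shared cluster of 117 cells, in which ISL1 was among the 10 leading genes, stood at 284 CPM of ID2 and 311 CPM of BMP4. Within this cluster ID2 was at 197 and 292 CPM in wild-type and at 545 and 295 CPM in mutant cells. The cluster of 27 cells shared by all libraries had 180 CPM of ID2 and 152 CPM of BMP4. BAMBI was at 547 and 708 CPM in wild-type and at 669 and 815 CPM in mutant amnion-like cells (0.30, SE 0.32).

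Marker sums of other cell types differed between genotypes in the same amnion-like cells. The 10 ExE-Mech markers summed to 700 to 797 CPM in wild-type libraries, with 6 to 8 of 10 detected and CCDC80 and POSTN at 0, and to 1542 to 3217 CPM with 10 of 10 detected in mutant libraries. The 10 trophoblast markers summed to 60.4 to 107 CPM in wild-type and to 627 to 684 CPM in mutant libraries, and the markers of a CDX1-positive mesoderm (Meso-1) to 893 to 1078 CPM against 349 to 538 CPM. The AM-1 markers of amnion were present in both genotypes, at 1917 to 1935 CPM in wild-type and 1572 to 2241 CPM in mutant libraries. Clusters were named amnion-like by the AM-1 or the AM-2 list, after the study's amnion clusters, and no AM-2 sum is given. The study reports AM-2 cells as overrepresented in its mutant embryos, and the mix of AM-1 and AM-2 cells was not compared here. The part of these sums in the member values was not tested.

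**Figure D2:**
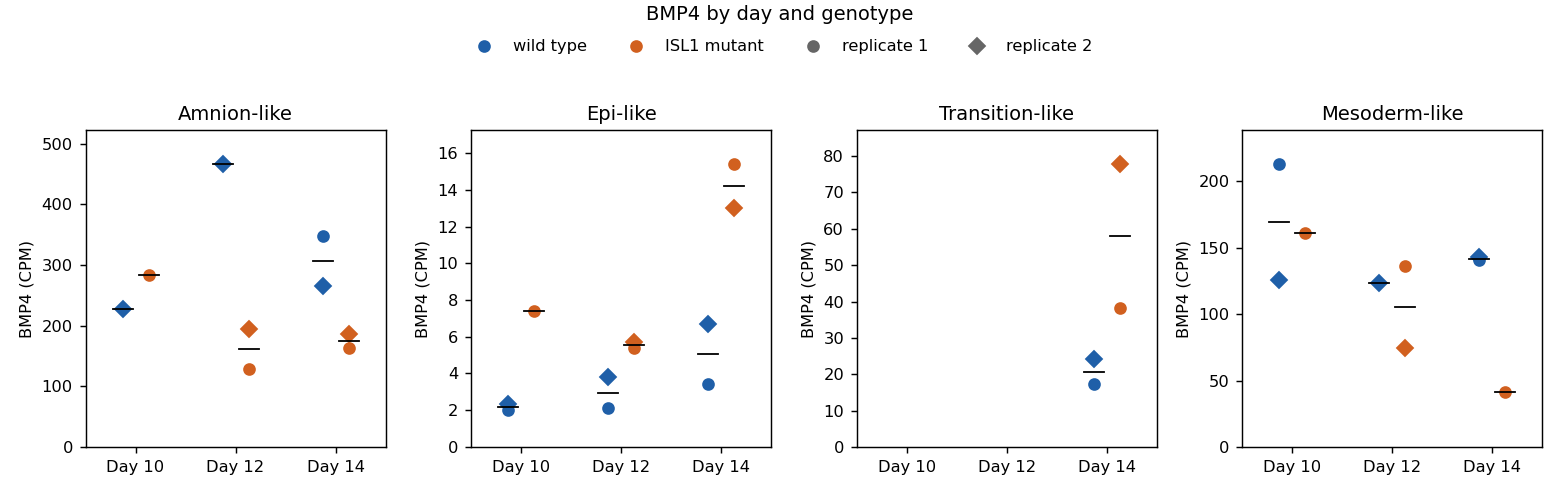
BMP4 level (CPM of summed UMIs, linear axis from 0) by day and genotype in amnion-like, Epi-like, transition-like and mesoderm-like cells, with a circle for library 1, a diamond for library 2 and a bar at the mean. In amnion-like cells both Day 14 mutant points (163 and 186 CPM) lie below both wild-type points, and in Epi-like and transition-like cells they lie above.

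In Epi-like and transition-like cells the Day 14 BMP4 difference had the other sign, at low levels. Epi-like BMP4 was at 3.43 and 6.72 CPM in wild-type and at 15.4 and 13.0 CPM in mutant libraries, which did not overlap, as for 21% of genes with higher mutant values. These levels rest on 34 and 4 UMIs in wild-type and 28 and 7 UMIs in mutant libraries. The log2 difference was 1.85 (SE 0.50, adjusted p = 0.133, edgeR), with 2.16 in batch 1 and 0.95 in batch 2 and a range of 1.24 to 2.18 over 21 alternatives. Of the 180 Epi-like cells of the first mutant library, 120 formed a cluster of that library alone, which had the highest BMP4 level of the 4 Epi-like clusters (17.3 CPM, against 3.59 CPM in the lowest). Without this cluster, an analysis added after seeing the data, that library was at 12.8 CPM, from 10 UMIs in 60 cells, and the other libraries kept their values (log2 difference 1.67, SE 0.63, adjusted p = 0.767, edgeR).

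Transition-like BMP4 was at 17.2 and 24.3 CPM in wild-type and at 38.1 and 77.7 CPM in mutant libraries, from 87 and 23 against 6 and 12 UMIs. The groups did not overlap, as for 19.8% of genes with higher mutant values, and the log2 difference was 1.56 (SE 0.54, adjusted p = 0.583, edgeR; 0.77 to 1.95 over 19 alternatives). Trophoblast markers in the same sums were also higher in mutants, at 47.1 to 110 CPM in wild-type against 110 to 372 CPM in mutant Epi-like cells and at 40.2 to 378 CPM against 375 to 1756 CPM in transition-like cells, and their part in the BMP4 values was not tested.

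Mesoderm-like and other types completed the Day 14 comparison of BMP4. In mesoderm-like cells BMP4 was at 141 and 143 CPM in wild-type and at 41.2 CPM in the only mutant library used, of 20 cells (log2 difference -1.98, SE 0.60, adjusted p = 0.754, edgeR, with the lone library assumed to vary like the others). The mutant cells lay 4 in the cluster led by MIXL1 and MESP1, 10 in that led by CDX1 and CDX4 and 6 in a cluster of 19 cells with a median UMI total of 0.219 times that of their libraries and 15.6 CPM of BMP4, compared with 126, 72 and 13 cells of the first and 21 cells of the CDX1 cluster and 1 of the MESP1 cluster in the second wild-type library. BAMBI was at 173 and 465 CPM against 165 CPM in the same cells (-1.10, SE 0.54). Endoderm-like BMP4 was at 12.3 and 18.1 CPM in wild-type and at 16 and 71.2 CPM in mutant libraries (1.22, adjusted p = 0.719, edgeR), and ExE-Mech-like BMP4 at 98.1 and 217 CPM against 150 and 177 CPM (0.16, SE 0.37).

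ExE-Mech-like BAMBI was at 890 and 784 CPM in wild-type and at 496 and 686 CPM in mutant libraries, which did not overlap, as for 24.5% of genes with lower mutant values (log2 difference -0.43, SE 0.30, adjusted p = 0.475, edgeR). Trophoblast-like ID2 was at 21.0 and 105 CPM against 35.4 and 23.7 CPM (-1.02), a value that rests on the second wild-type library, since without it the difference was 0.39 and without the first -1.73 (adjusted p = 0.687 and 0.0390, edgeR). Trophoblast-like ID4 had a difference of 1.63 (SE 0.79, adjusted p = 0.40, edgeR) with no library above 2.34 CPM.

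**Figure D3:**
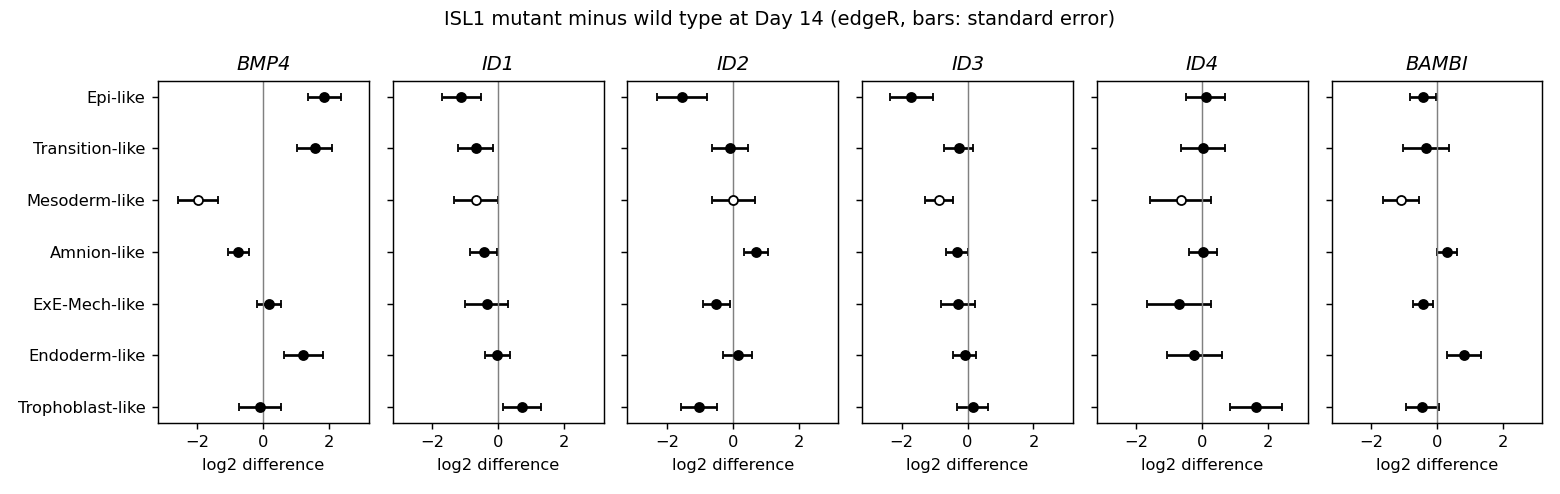
Mutant minus wild-type difference at Day 14 (log2, edgeR, with 1 SE to each side) for each of the 6 genes in each cell type, where an open marker is a comparison with 1 mutant library. BMP4 lies at -0.76 in amnion-like and -1.98 in mesoderm-like cells and at 1.85 in Epi-like and 1.56 in transition-like cells, and none of the points passed a false discovery rate of 1%.

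Whether the mutant effect itself differed between amnion-like cells and the mean of 5 other types (Epi-like, transition-like, ExE-Mech-like, endoderm-like and trophoblast-like) was tested in a fit over all of them at Day 14. BMP4 had a difference of effects of -1.69 (SE 0.54, adjusted p = 0.535, edgeR) and ID2 of 1.23 (SE 0.51, adjusted p = 0.643). The other members lay between -0.02 and 0.30. None of the 6 genes was called, against 0% of all genes, with 2 members and 7.22% of all genes at an unadjusted p under 0.05 and 0 members called by DESeq2. The BMP4 value was negative in 13 of 13 alternatives, between -2.01 and -1.36, with adjusted p from 0.0406 to 1.00.

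At Day 12 a test was set to need 2 libraries of each genotype, a stricter rule than at Day 10 and Day 14, where 1 mutant library was enough. Amnion-like cells could be used from 1 wild-type library (21 cells), so the values are given side by side and were not tested. BMP4 was at 466 CPM in that library and at 128 and 195 CPM in the mutant libraries. Between the libraries with batch number 2, which the labels count within each genotype and which were not taken as a pair, the log2 difference was -1.26. The wild-type library was the highest of all amnion-like libraries, and 76.2% of its cells (95% interval 52.8 to 91.8%, exact binomial) had a BMP4 UMI at 5000 UMIs, compared with 41.5% (29.4 to 54.4%) and 50.9% (41.3 to 60.5%) in the mutant libraries. ID4 had the same order, at 179 CPM in the wild-type and 111 and 129 CPM in the mutant libraries, and the other 4 members did not: ID1 was at 1110 CPM against 972 and 1561 CPM, ID2 at 164 against 183 and 268 CPM, ID3 at 799 against 894 and 938 CPM, and BAMBI at 480 against 605 and 809 CPM. Lower Day 12 levels were not limited to amnion-like cells. ExE-Mech-like BMP4, also not tested, was at 265 CPM in wild-type and at 149 and 96.2 CPM in mutant libraries (log2 difference -1.46 in batch 2). Mesoderm-like BMP4 was at 124 CPM against 137 and 74.8 CPM (-0.73 in batch 2). At Day 10, with 11 wild-type and 16 mutant amnion-like cells in 1 library each, BMP4 was at 228 and 283 CPM.

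In Day 12 Epi-like cells 5 of the 6 genes were higher in both mutant libraries than in both wild-type libraries, whereas 21.2% of all genes were so. BAMBI was at 55.0 and 49.8 CPM in wild-type and at 124 and 123 CPM in mutant libraries (log2 difference 1.23, SE 0.39, adjusted p = 0.281, edgeR). ID1 was at 358 and 390 CPM against 683 and 1146 CPM (1.28), and ID3 at 228 and 183 CPM against 466 and 482 CPM (1.19). ID2 (0.78) and BMP4 (0.87) had smaller differences of the same sign, and ID4 did not (-0.06). In the same sums the 10 trophoblast markers added up to 0.524 to 51.9 CPM in wild-type (1 to 10 detected) and 70.5 to 181 CPM in mutant libraries (8 to 10 detected), and the ExE-Mech markers to 89.4 to 123 CPM and 120 to 138 CPM. Their part in the member values was not tested.

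None of the 5 was called, as edgeR called 0.0194% of genes in this comparison, and BAMBI was the only member at an unadjusted p under 0.05, beside 10.4% of all genes, with 0 members called by DESeq2. The first wild-type library held 14 Epi-like cells. The genotypes also lay mostly in different Epi-like clusters. A single cluster, of 119 cells, held cells of all 4 libraries, with 14 of 14 and 48 of 58 wild-type cells but 26 of 390 and 31 of 86 mutant cells, and it had the lowest BAMBI level of the 6 Epi-like clusters (63.7 CPM). The other 5 Epi-like clusters each drew 93.1% to 100% of their cells from a single mutant library. In that cluster alone, an analysis added after seeing the data, BAMBI was at 55.0 and 45.6 CPM in wild-type and at 114 and 96.3 CPM in mutant libraries (log2 difference 1.04, SE 0.44, adjusted p = 0.591, edgeR). ID1 (358 and 335 against 522 and 1065 CPM) and ID3 (228 and 148 against 303 and 509 CPM) did not overlap there either, while ID2 and BMP4 overlapped. The share of all genes without overlap in this cluster was not computed, so nothing is read from these values about the members. At Day 14 the differences of ID1, ID2 and ID3 were negative with the second wild-type library and positive without it, as given below with the Day 14 values, and the difference between days was not tested.

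Endoderm-like and trophoblast-like cells could also be compared at Day 12, where edgeR called 0% and 0.0067% of genes and neither edgeR nor DESeq2 called a member. Endoderm-like BMP4 was at 27.8 and 46.9 CPM in wild-type and at 12.3 and 11.1 CPM in mutant libraries (log2 difference -1.64, adjusted p = 0.658, edgeR), and ID2 had a difference of -1.20 (adjusted p = 0.663). Both had lower values in both mutant libraries, as 14.2% of genes did. Trophoblast-like BMP4 was at 1.17 and 4.74 CPM against 8.05 and 11.8 CPM (1.76, adjusted p = 0.413, edgeR), and ID1 at 17.4 and 41.8 CPM against 81.0 and 123 CPM (1.77, adjusted p = 0.375). These were the 2 members with an unadjusted p under 0.05 in each of the 2 types, beside 6.51% of all genes in endoderm-like and 11.2% in trophoblast-like cells. Endoderm-like ID3 was higher in both mutant libraries, as 21.6% of genes were, and in trophoblast-like cells 3 members were higher, as 27.9% of genes were, and 1 was lower, as 16.8% were.

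At Day 10 a single mutant library was set against 2 wild-type libraries. The tests assume that this lone library varies like the other groups, so they do not measure the spread between mutant pools of this day. In Epi-like cells the mutant library lay above both wild-type libraries for all 6 genes, as it did for 36.9% of all genes, with BMP4 at 2.00 and 2.35 CPM in wild-type and at 7.39 CPM in the mutant library (log2 difference 1.72, adjusted p = 0.406, edgeR). The genotypes were unevenly spread over the Epi-like clusters here too: the cluster with the highest BMP4 level (10.5 CPM) held 44 mutant cells of 63, and another of 77 cells held 75 cells of the second wild-type library. Trophoblast-like ID1 was at 4.12 and 12.8 CPM against 40.4 CPM (2.27, adjusted p = 0.203, edgeR), and BMP4 at 0.262 and 0.344 CPM, from 4 and 5 UMIs, against 1.55 CPM (2.34, adjusted p = 0.362). Fewer wild-type than mutant cells were named at this day: 251 of 658 and 279 of 670 wild-type cells (38.1% and 41.6%), but 16 of 769 mutant cells (2.08%), lay in unnamed clusters outside the epiblast-derived cells, which had 14.0 to 35.4 CPM of ID1 and 27.7 to 862 CPM of ID2, and their part in the trophoblast-like values was not tested. No member was called by edgeR or DESeq2 at Day 10, where edgeR called 0.0484% of genes in Epi-like, 0.121% in trophoblast-like, 0.0185% in mesoderm-like and 0% in endoderm-like cells, and at an unadjusted p under 0.05 were 1 member in Epi-like (4.60% of all genes), 2 in trophoblast-like (12.7%) and 0 in mesoderm-like (3.92%) and endoderm-like cells (3.66%).

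In wild-type embryos the levels were compared between Day 14 and Day 10. In Epi-like cells BAMBI rose, a call that several alternatives did not keep. The Day 10 libraries had 44.4 and 24.5 CPM, and the Day 14 libraries 98.0 and 245 CPM (log2 difference 2.26, SE 0.40, adjusted p = 0.0061, edgeR). It was the only member called in any comparison, and edgeR called 1.52% of all genes between these days, 0.736% as higher at Day 14. With the second Day 14 wild-type library left out the BAMBI difference was 1.58 (adjusted p = 0.0311, edgeR), and with the second Day 10 wild-type library left out it was 1.84 (adjusted p = 0.0697), which did not pass the threshold. With the batch number as a replicate block it was 2.24 (adjusted p = 0.010, edgeR) and with clusters on the principal component graph 2.10 (adjusted p = 0.0110), both just short of the threshold. Leaving out any of the 4 mutant libraries of Day 12 and Day 14, which enter through the shared spread, gave 2.22 to 2.26 with adjusted p between 0.0108 and 0.0148. The Day 12 libraries, at 55.0 and 49.8 CPM, lay between those of Day 10 and Day 14. Over the same libraries the 10 ExE-Mech markers, a type high in BAMBI, summed to 53.2 to 101 CPM at Day 10 (7 of 10 detected, with COL3A1, HGF and POSTN at 0) and to 127 to 148 CPM at Day 14 (9 to 10 detected). The Epi markers summed to 17945 to 23078 CPM at Day 10 and 7258 to 12166 CPM at Day 14, and the part of both lists in the BAMBI values was not tested.

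The ID genes in Epi-like cells had Day 14 minus Day 10 differences of 2.32 for ID1 (adjusted p = 0.0498, edgeR), 1.98 for ID2 (0.133), 1.91 for ID3 (0.115) and 1.50 for ID4 (0.169), and BMP4 had 0.93 (0.316). An unadjusted p under 0.05 was found for 5 members, BAMBI included, and for 18.9% of all genes, and 4 were higher in both Day 14 libraries, as were 21.7% of genes. These ID values rest on the second Day 14 wild-type library. Without it the differences were 0.45 for ID1, -0.26 for ID2 and -0.34 for ID3, and without the first Day 14 wild-type library they were 3.1, 3.01 and 2.76.

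The 2 Day 14 wild-type libraries were far apart for the ID genes. In Epi-like cells ID1 was at 363 CPM in the first and 2511 CPM in the second library, ID2 at 14.1 and 151 CPM, and ID3 at 117 and 1112 CPM. These are ratios of 6.92, 10.7 and 9.47, and 0.252%, 0.145% and 0.155% of the 10327 genes of this fit had ratios at least as high. ID4 had a ratio of 3.38, BAMBI of 2.5 and BMP4 of 1.96.

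The 4 ID genes were also higher in the second library in transition-like cells (ID1 3.25, ID2 2.79, ID3 2.40 and ID4 3.44 times the first library), mesoderm-like cells (3.87, 3.61, 2.08 and 4.39 times), where the libraries lay in different clusters, and amnion-like cells (2.06, 1.87, 1.68 and 2.82 times). Ratios at least as high were held by 0.904% to 2.17% of the 5200 genes in transition-like, 1.23% to 9.08% of the 10804 genes in mesoderm-like and 4.38% to 16% of the 9152 genes in amnion-like cells. Of the mesoderm-like cells, the first library had 126 of 211 in the cluster led by MIXL1 and MESP1 (304 CPM of ID1 and 51.7 CPM of ID2) and the second 21 of 22 in that led by CDX1 and CDX4 (903 CPM of ID1 and 125 CPM of ID2), and the part of this in the ratios was not tested. BAMBI was 5.38, 2.70 and 1.30 times as high in these 3 types. BMP4 was at 1.41, 1.02 and 0.761 times the first library, and so was higher in the second library in transition-like and lower in amnion-like cells. In ExE-Mech-like cells ID1, ID3 and ID4 had the opposite order, at 0.261, 0.317 and 0.167 times the first library, and in trophoblast-like cells ID1 and ID3 were at 0.510 and 0.608 times and ID2 at 4.99 times.

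**Figure D4:**
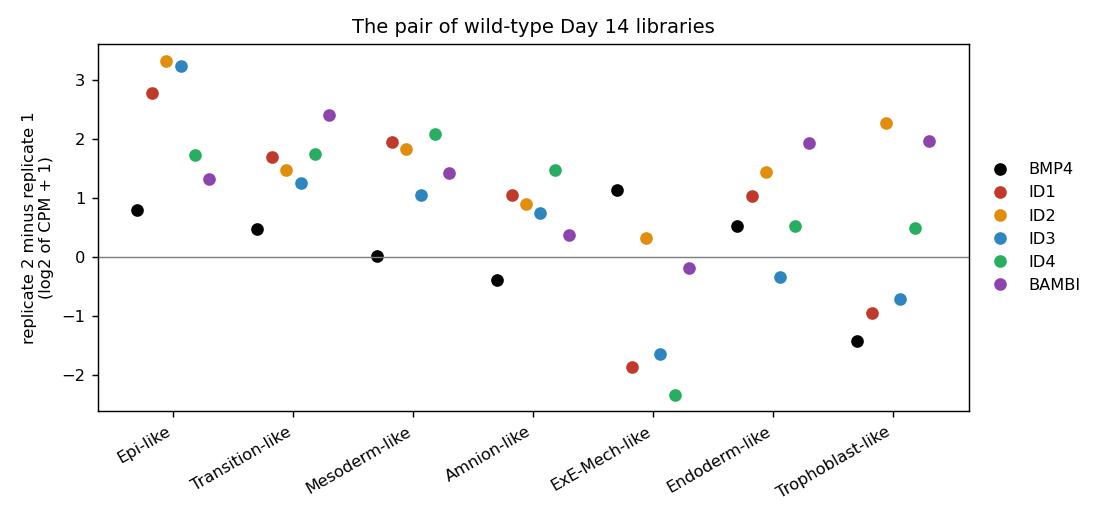
Second minus first Day 14 wild-type library (difference of log2(CPM + 1)) for each of the 6 genes in each cell type. ID1, ID2 and ID3 of Epi-like cells lie highest, at ratios of 6.92, 10.7 and 9.47, while ID1, ID3 and ID4 of ExE-Mech-like cells lie below 0.

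The same spread bears on the Day 14 comparison of genotypes for the ID genes in Epi-like cells. ID1 was at 444 and 765 CPM, ID2 at 21.4 and 26.1 CPM and ID3 at 159 and 184 CPM in mutant Epi-like cells, each between the wild-type values. The log2 differences from wild-type were -1.12, -1.54 and -1.70 (SE 0.60, 0.77 and 0.65; adjusted p = 0.281 for ID3, edgeR). Without the second wild-type library they were 0.73, 0.67 and 0.52, and without the first they were -1.89, -2.57 and -2.54, where ID3 was called (adjusted p = 0.0077, edgeR).

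Trophoblast-like cells were compared between days in the largest number of cells. BMP4 was at 0.262 and 0.344 CPM in the Day 10 wild-type libraries, from 4 and 5 UMIs, and at 13.8 and 4.52 CPM in the Day 14 libraries, from 1641 and 96 UMIs. The log2 difference was 5.00 (SE 0.87, adjusted p = 0.0181, edgeR), which did not pass the threshold of 1%, and DESeq2 gave 4.99 with an adjusted p of 8.53e-08. Without the second Day 14 wild-type library the difference was 5.63 (adjusted p = 0.0037, edgeR), which passed it, and without the first it was 3.81 (adjusted p = 0.0480). Over 19 alternatives the adjusted p ran up to 0.127, reached without the second Day 10 wild-type library. ID1 was at 4.12 and 12.8 CPM at Day 10 and at 99.2 and 50.6 CPM at Day 14 (3.23, SE 0.63, adjusted p = 0.0229, edgeR). DESeq2 called it as well, and over 19 alternatives the difference lay between 2.52 and 4.19 with adjusted p up to 0.101.

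ID2 in trophoblast-like cells had the opposite sign, at 130 and 163 CPM at Day 10, 54.2 and 56.8 CPM at Day 12 and 21.0 and 105 CPM at Day 14 in wild-type libraries. The log2 difference was -1.26 (adjusted p = 0.210, edgeR), and without the second Day 14 wild-type library it was -2.67 (adjusted p = 0.0037). ID3 (0.96), ID4 (2.29, with all libraries at or below 2.34 CPM) and BAMBI (-0.34) had adjusted p above that of ID1. In both Day 14 libraries 4 members were higher, as were 26.6% of genes, 1 was lower, as were 21.5%, and edgeR called 0.798% of genes. Trophoblast markers summed to 4622 to 7027 CPM at Day 10 and 17670 to 22023 CPM at Day 14 in the same sums, and their part in the member values was not tested. The 38.1% and 41.6% of Day 10 wild-type cells in unnamed clusters, with levels given above, did not enter the Day 10 sums.

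In mesoderm-like and endoderm-like cells neither edgeR nor DESeq2 called a member between Day 10 and Day 14, with edgeR calling 0% and 0.0307% of genes. The study proposes that its mesodermal cells of Day 10 are likely extraembryonic, so the mesoderm-like sums of these days may differ in tissue. Mesoderm-like ID4 had a difference of 1.30 and was the only member at an unadjusted p under 0.05 (adjusted p = 0.363, edgeR), as 13.5% of all genes were, ID1 had 1.05, and BMP4 had -0.21, at 213 and 126 CPM at Day 10 and 141 and 143 CPM at Day 14. In endoderm-like cells 0 members and 9.61% of all genes had an unadjusted p under 0.05, and the differences lay between -0.81 for ID2, lower in both Day 14 libraries as 19.3% of genes were, and 0.57 for ID4.

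Trophoblast-like clusters differed widely in the 3 genes ID1, ID2 and ID3. Over the 23 Day 14 clusters ID1 ranged from 4.68 to 509 CPM, ID2 from 1.51 to 192 CPM, ID3 from 299 to 3731 CPM and BMP4 from 1.16 to 31.0 CPM. BMP4 was highest, at 31.0, 26.4 and 24.4 CPM, in 3 clusters with CALCB among their leading genes, beside PECAM1 or LAIR2, a marker of extravillous trophoblast, and ID2 was near its lowest there, at 2.58, 1.51 and 2.89 CPM. ID2 was highest, at 192 CPM, in a cluster of 475 cells led by NPPB and stood at 138 CPM in a cluster of 324 cells with the hormone subunit gene CGA among its leading genes. The clusters hold cells of several libraries, so these levels are a description.

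**Figure D5:**
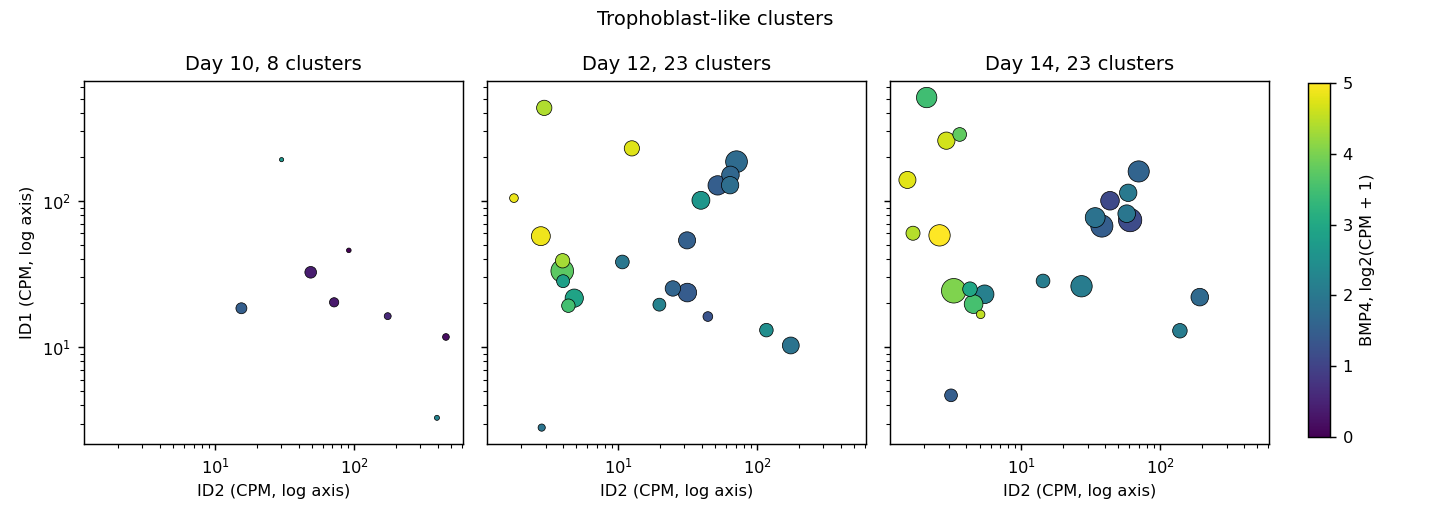
ID1 against ID2 level (CPM, log axes) in trophoblast-like clusters of at least 20 cells by day (Days 10, 12 and 14), with area proportional to the number of cells and colour for the BMP4 level (log2(CPM + 1)). At Day 14 the 23 clusters spread from 4.68 to 509 CPM of ID1 and from 1.51 to 192 CPM of ID2.

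Of a list of 60 other genes of the BMP and TGF-beta pathway, 16 could be paired with an identifier, and 10 to 16 were measured in a comparison. None was called in 18 of the 19 comparisons. TWSG1, an extracellular modulator of BMP ligands, was called in wild-type trophoblast-like cells, where the Day 10 libraries had 2.10 and 2.41 CPM and the Day 14 libraries had higher levels of 7.66 and 10.2 CPM (log2 difference 1.99, SE 0.29, adjusted p = 0.00999, edgeR).

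In Day 14 amnion-like cells the list had a median log2 difference between genotypes of 0.84, beside 0.02 over all genes, and 0 of its genes passed the threshold. A gene could be paired only where the study's tables of genes that differ among these cells name it, so the medians are not comparable and nothing is read from them. TGFB1, a ligand, was at 8.95 and 11.8 CPM in wild-type and at 133 and 190 CPM in mutant libraries (4.08, SE 0.64, adjusted p = 0.0407, edgeR). FSTL1, an extracellular modulator, was at 43.4 and 28.5 CPM against 203 and 157 CPM (2.30, SE 0.35, adjusted p = 0.0407, edgeR). The genes given here were chosen as those of the list with the largest absolute log2 difference in this comparison. The size of their differences is therefore no separate support. TWSG1 (1.98, adjusted p = 0.239), the homeobox target DLX5 (1.47, adjusted p = 0.207) and the transcription factor HAND2 (1.37, adjusted p = 0.491) followed, beside the higher ExE-Mech and trophoblast marker sums of the mutant amnion-like cells given above.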

How the data were processed

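The 11 single-cell libraries (10x Chromium 3' v3) were each prepared from 1 to 3 cultured embryos. Per the study's methods and the labels, the authors ran Cell Ranger 3.1.0 against the macaque genome Macaca_fascicularis_5.0 with the Ensembl release 96 annotation, filtered cells on the mitochondrial share and the genes detected, and corrected for ambient RNA with SoupX. The deposited tables hold UMI counts per gene and cell, and the SoupX-corrected table, whose values are expected counts that the authors adjusted to whole numbers, was used; the uncorrected table was an alternative. All columns were mapped to a library (0 left unmapped). The correction took a larger share of UMIs from both Day 14 mutant libraries than from both Day 14 wild-type libraries. Mutant totals fell from 127233106 to 116080332 and from 111235161 to 107653547, and wild-type totals from 169872277 to 164808415 and from 36823334 to 36654977. The part of this in the differences between genotypes was not tested.

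Cells were normalized, integrated across the libraries of a day on 5000 genes and 30 dimensions, and clustered at resolution 0.8 (Seurat 5.3.0), leaving out 24 genes (the members, the pathway list, ISL1 and WNT6). Up to 10 markers a type, taken from the study's own tables on these cells, named a cluster. At least 3 of them had to be detected in 25% of its cells. For the epiblast-derived, ExE-Mech and endoderm lineages the marker score also had to lie more than 2 log2 units above the mean of the clusters. Clusters short of that cut were named trophoblast-like by default, with at least 3 trophoblast markers detected but no trophoblast score required. This scoring rule was set after the clusters were seen. No doublet caller was run; an alternative left out cells with more than 2 times the median UMI total of their library. Sums over at least 5 cells of a type in a library were tested with edgeR 4.0.16 (R 4.3.3; TMM, filterByExpr, glmQLFit and glmQLFTest, SE as the log2 difference over the root of F, false discovery rate 1%), in a fit per type over all days and genotypes, after the scripts were tested on simulated data; the study tested single cells instead. Alternatives used DESeq2 1.42.0, other size factors, no filter, 20 cells, another cluster graph, the batch number as a block and each library left out in turn.

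All 6 members were named in every comparison, with the 3 genes most like each (sums of at least 20 cells, genes of at least 5 CPM on average). Symbols were paired with 1023 identifiers through the study's supplementary tables, so genes without a pair were not named. Members and lists were chosen with earlier results of these data known. The depth and the number of cells of each sum limit its precision, and p-values measure the spread between libraries of 1 to 3 embryos. No genome of the files' build was used here, so no coordinates or sequences are given.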

Additional observations from a re-analysis of the deposited data

Results flagged for a closer look

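The mutant effect on BMP4 at Day 14 was negative in amnion-like and positive in Epi-like and transition-like cells. In each of these 3 types both mutant libraries lay on the same side of both wild-type libraries. The same held for 21.9%, 21% and 19.8% of all genes in the respective type and direction. Mesoderm-like cells had the most negative BMP4 difference (-1.98), from a single mutant library of 20 cells. The genotypes overlapped in endoderm-like, ExE-Mech-like and trophoblast-like cells. The difference of log2 effects was 2.61 between Epi-like and amnion-like cells (1.85 against -0.76) and 2.32 between transition-like and amnion-like cells (1.56 against -0.76). These pairs of types were chosen for this pattern and their difference was not tested pair by pair. The contrast of amnion-like cells with the mean of 5 other types, which left out mesoderm-like cells, had an adjusted p of 0.535 (edgeR). The Epi-like and transition-like values rest on 4 to 87 BMP4 UMIs per library. No group held the 4 libraries that a check for single outlying libraries needs.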

How the results depend on the processing

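At Day 14 the direction of the BMP4 difference held throughout in amnion-like (24 of 24 alternatives), Epi-like (21 of 21), transition-like and mesoderm-like (19 of 19 each) and endoderm-like cells (20 of 20). It also held for other members, such as ID2 in amnion-like (24 of 24) and BAMBI in ExE-Mech-like cells (20 of 20). For others it did not, such as ID1 and ID3 (23 of 24 each) and ID4 (18 of 24) in amnion-like cells and ID1 in endoderm-like cells (13 of 20). The BMP4 difference did not keep its sign throughout in ExE-Mech-like (18 of 20) and trophoblast-like cells (19 of 20). The alternatives share most of their libraries, so a kept sign is no separate support. Counts of members called moved as follows. Between days in wild-type Epi-like cells, edgeR without a filter on low counts called 5 members instead of 1 (681 instead of 157 of all genes). It called 1 instead of 0 in mesoderm-like (362 instead of 0 of all genes) and 2 instead of 0 in trophoblast-like cells. Between genotypes in Epi-like cells it called 3 instead of 0 members at Day 12 (182 instead of 2 of all genes). At Day 14 it called 3 (226 instead of 4 of all genes). DESeq2 called 2 members between days in trophoblast-like cells, beside 1343 instead of 119 of all genes. Calls over all genes rose as well, so these counts are not read as a result about the members. Clusters on the principal component graph and the batch number as a replicate block each left 0 members called between days in Epi-like cells, where BAMBI had adjusted p = 0.0110 and 0.010 (edgeR). The cause of these changes was not tested.

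Leaving out each library in turn gave 0 to 4 members called between days in Epi-like cells, 0 to 2 in trophoblast-like cells (BMP4 and ID2 without the second Day 14 wild-type library) and 0 to 1 between genotypes in Day 14 Epi-like cells (ID3 without the first Day 14 wild-type library). The 4 were found without the first Day 14 wild-type library, and 0 without the second Day 10 or Day 14 wild-type library or any mutant library of Day 12 or Day 14. Thinned to 10000 UMIs, the median shares of amnion-like cells with a UMI were 78.3% for BMP4, 80% for ID2 and 58.8% for ID4. With Pearson correlation, 1 of the 3 genes most like ID1, 0 of those most like ID4 and 1 of those most like BAMBI stayed among the 3.

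The number of all genes called depended on the analysis, with the highest counts from DESeq2 or from no filter. Between days it was 157 in Epi-like cells (12 to 681 over alternatives), 119 in trophoblast-like (0 to 1343), 3 in endoderm-like (0 to 302) and 0 in mesoderm-like cells (0 to 362). Between genotypes at Day 14 it was 4 in Epi-like (0 to 226), 1 in amnion-like (0 to 364), 1 in transition-like (0 to 59) and 0 in ExE-Mech-like (0 to 218), endoderm-like (0 to 120), mesoderm-like (0 to 47) and trophoblast-like cells (0 to 257), and 0 for the difference of effects (0 to 2). At Day 12 it was 2 in Epi-like (1 to 182), 1 in trophoblast-like (0 to 110) and 0 in endoderm-like cells (0 to 125), and at Day 10 it was 18 in trophoblast-like (0 to 403), 5 in Epi-like (0 to 86), 2 in mesoderm-like (0 to 85) and 0 in endoderm-like cells (0 to 96).

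Batch numbers were not taken as pairs, since the labels name no shared origin. The study states that Day 14 embryos of both genotypes were collected in batches, but not which libraries share a batch. The deviations of same-numbered libraries from their group means had correlations between -0.20 (Day 14 amnion-like) and 0.13 (Day 14 ExE-Mech-like) over 9 comparisons. With the numbers crossed as a replicate block, an alternative added after seeing the data, 3 genes and 0 members were called in amnion-like cells. Low UMI counts limit BMP4 in Epi-like, transition-like, Day 10 trophoblast-like, several endoderm-like and the Day 14 mutant mesoderm-like sums.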

Other observations

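Clusters that stayed without a name held some of the highest levels of the ID genes. A Day 10 cluster of 92 cells had 862 CPM of ID2. A Day 12 cluster of 117 cells had 675 CPM of ID1 and 2848 CPM of ID3 but 1.77 CPM of ID2. A Day 12 cluster of 138 epiblast-derived cells, 93.5% of them from the first mutant library, had 1849 CPM of ID1, 1248 CPM of ID3 and 420 CPM of BAMBI. At Day 14 a cluster of 156 cells from the first mutant library, with amnion as its nearest type, had 166 CPM of BMP4 and 277 CPM of ID1, and another of 28 cells had 216 CPM of BMP4 and 56.8 CPM of ID1. With these unnamed clusters counted as amnion-like, BMP4 was at 348 and 265 CPM in wild-type and at 160 and 186 CPM in mutant libraries (log2 difference -0.71, adjusted p = 0.280, edgeR). Other members moved more in the first mutant library, which then held 257 cells: ID1 was at 441 CPM there instead of 822 CPM, ID2 at 240 instead of 506 CPM, ID3 at 346 instead of 663 CPM and BAMBI at 444 instead of 669 CPM. ID3 then lay lower in both mutant libraries (346 and 408 CPM) than in both wild-type libraries (470 and 848 CPM; log2 difference -0.67, adjusted p = 0.223, edgeR), and the ID2 difference was 0.25. This alternative was added after seeing the data.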
